A study of Mus musculus with 12 samples.

Results

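The PPAR, ERR and PGC-1 regulators are nuclear receptors, coactivators and mitochondrial transcription factors that set the capacity of a cell to burn fatty acids. Here 10 of them were followed, Ppara, Ppard, Pparg, Ppargc1a, Ppargc1b, Esrra, Esrrb, Esrrg, Nrf1 and Tfam. They were chosen by gene symbol from 57683 genes in a table of polyadenylated RNA counts, 20692 of which carry Ensembl identifiers, and each symbol matched 1 row. The study compared freshly isolated heart muscle cells with cultured cells of the same hearts that are not muscle cells, in wild-type female FVB/NJ mice aged 12 weeks. RNA of the cardiomyocyte fraction was taken directly after enzymatic dissociation of the perfused heart. The nonmyocyte fraction was first grown in culture until mostly fibroblasts remained, and the labels give both 2 passages and a P1 culture for it. Each fraction had 3 polyadenylated RNA libraries and 3 small RNA libraries, and both fractions carried no allele, treatment or agent beyond the wild-type background. The labels name 3 hearts but do not tie a library to a heart, so p-values measure the spread between these libraries. Cell type and time in culture changed together between the fractions and cannot be told apart.

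Peroxisome proliferator-activated receptors (PPARs) sense fatty acids and bind DNA as pairs with retinoid X receptors. Oestrogen-related receptors (ERRs) resemble steroid receptors but act without a known natural hormone and depend on the PGC-1 coactivators, which have no DNA-binding domain of their own. In the heart these proteins are known to switch on genes of fatty acid oxidation, the citric acid cycle and the respiratory chain, while NRF1 and TFAM link that programme to the copying and reading of mitochondrial DNA.

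The polyadenylated RNA libraries held between 5956831 and 26851830 counts, and cardiomyocyte library 1 was the shallowest. Levels below are counts per 1000000 (CPM) scaled with edgeR's trimmed mean of M-values (TMM), and differences are log2 fold changes, cardiomyocyte minus nonmyocyte, with standard errors. Adjusted p-values come from edgeR's quasi-likelihood test with Benjamini-Hochberg adjustment over 14734 genes, and a gene was called at an adjusted p under 0.05. All 12 cardiomyocyte markers were called higher in cardiomyocytes and all 11 tested fibroblast markers of 12 lower, so both labels matched their defining genes. Of 12 tested endothelial markers of 13, 11 were higher in the cardiomyocyte fraction, with summed levels of 670 to 1309 CPM against 111 to 119 CPM. The other listed endothelial gene, Pecam1, stood at 0 in the nonmyocyte libraries and was too low to test. Of 8 tested macrophage markers of 12, 4 were higher and 3 lower, of 12 smooth muscle and pericyte markers 5 were higher and 6 lower, and of 4 tested adipocyte markers of 13, 3 were higher and 1 lower. In such bulk samples, fewer cells of a type and less RNA per cell cannot be told apart. Scaling by library totals in place of TMM moved the median log2 fold change of all tested genes by -0.68. The calls, 4657 genes higher and 4732 lower with TMM, then became 3177 higher and 7106 lower.

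Of the 9 regulators that passed the filter on low counts, 6 were higher in cardiomyocytes, 0 were lower and 3 were not called. Among all tested genes 31.6% were called higher and 32.1% lower. The 6 called regulators fell into 2 size classes. Ppara, Ppargc1b, Esrrb and Esrrg differed by 6.45 to 6.85 on the log2 scale, whereas Esrra and Tfam differed by 2.59 and 1.85. Ppard, Pparg and Nrf1 overlapped between the fractions. None of the 9 was lower at an unadjusted p under 0.05, and DESeq2 and limma voom also called 0 lower. Without the shallow cardiomyocyte library 1 the calls were again 6 higher and 0 lower. The libraries of the fractions did not overlap for the 6 called regulators, all higher in cardiomyocytes, where 34.1% of all tested genes separated in that direction and 36.3% in the other.

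**Figure D1:**
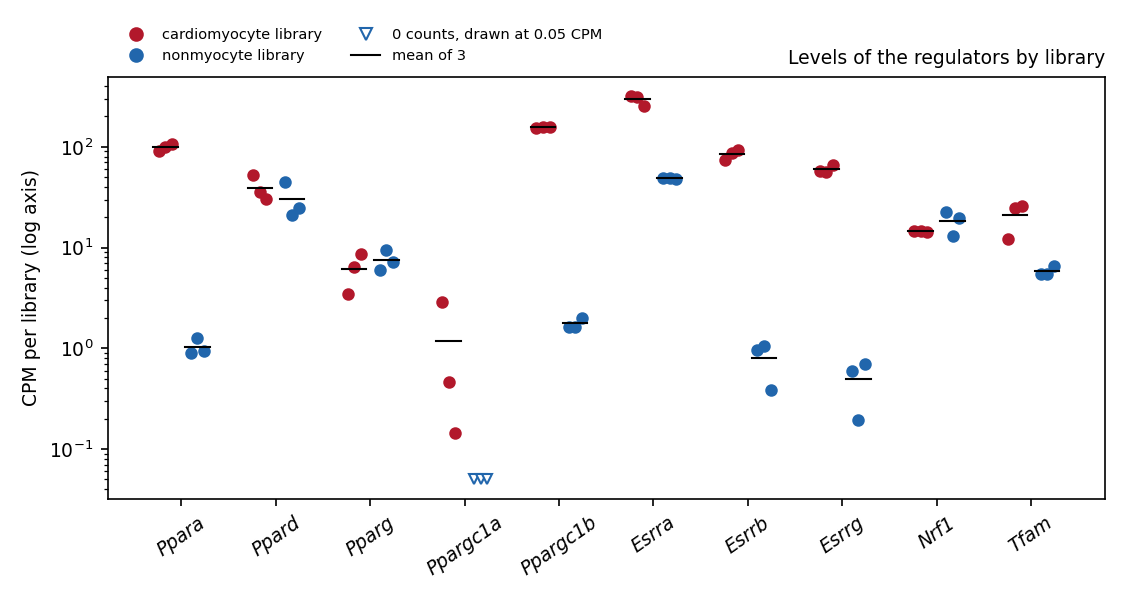
CPM of each regulator in each library on a log axis, red for cardiomyocytes and blue for nonmyocytes, with black lines for the mean of 3 libraries. Ppara, Ppargc1b, Esrrb and Esrrg lie about 2 decades apart between the fractions, Ppard, Pparg and Nrf1 overlap, and Ppargc1a has 0 counts in all nonmyocyte libraries (open triangles, drawn at 0.05 CPM).

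Among the receptors for fatty acids, Ppara is the one best known for driving fatty acid oxidation in heart and liver. Its gene lies on mouse chromosome 15 from 85565413 to 85633249 on the plus strand (mm9). Ppara stood at 91.1, 99.6 and 107 CPM in cardiomyocyte libraries 1 to 3 and at 0.896, 1.26 and 0.931 CPM in nonmyocyte libraries 1 to 3. Every cardiomyocyte library was far above every nonmyocyte library. The log2 fold change was 6.60 ± 0.24 (adjusted p = 1.67e-10). The nonmyocyte mean of 1.03 ± 0.199 CPM (SD, n = 3) rested on 12 to 13 counts per library and was 1.04% of the cardiomyocyte mean of 99.2 ± 7.91 CPM (SD, n = 3). None of the exon bases of Ppara lies in another annotated gene.

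The promoters of Ppara, Esrra and Tfam, 3 called regulators, are shown with their genes because they alone among 16 promoters of 9 members held a match to the motif of another regulator of the pathway. RefSeq sequence of GRCm38.p6 was used, from 250 bases before to 50 bases after each annotated start, and the table had none for Ppargc1b. Both strands of 32851 promoters were searched for the NRF1 core GCGCANGC (in 9.95% of promoters), the GABP site CCGGAAG (8.86%), the ERR site AAGGTCA (4.72%), a pair of PPAR core sites 1 base apart, AGGTCANAGGTCA (0.0396%), the E-box CACGTG (7.15%), the cyclic AMP response element TGACGTCA (1.79%) and the Sp1 site GGGCGG (35.7%). Capitals mark matches to any of these but the Sp1 site, and no Sp1 match overlapped them. None of the 16 promoters held the ERR site, the PPAR pair, the E-box or the cyclic AMP response element. Whether matches were more frequent among the 16 than among all promoters was not tested. The Ppara promoter, GRCm38.p6 chr15:85735526-85735825 on the plus strand, held the NRF1 core at -31 and again, on overlapping bases, at -29, counted from the start site.
Ppara promoter: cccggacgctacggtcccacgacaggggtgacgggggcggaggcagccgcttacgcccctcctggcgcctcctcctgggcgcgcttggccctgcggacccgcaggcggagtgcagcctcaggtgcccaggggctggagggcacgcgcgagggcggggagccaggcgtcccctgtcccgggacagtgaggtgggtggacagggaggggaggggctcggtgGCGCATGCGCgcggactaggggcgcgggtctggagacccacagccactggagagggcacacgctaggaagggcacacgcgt

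Ppard is a PPAR found in most tissues, and it too can drive fatty acid use in muscle. Its gene lies on chromosome 17 from 28369711 to 28438414 on the plus strand (mm9). Ppard stood at 52.3, 35.6 and 30.3 CPM in cardiomyocyte libraries 1 to 3 and at 45.2, 20.9 and 25 CPM in the nonmyocyte libraries. The highest nonmyocyte library exceeded the lower pair of cardiomyocyte libraries. On the log2 scale Ppard differed by 0.36 ± 0.29 (adjusted p = 0.301). This value depended on nonmyocyte library 1, since without it Ppard was called higher, at 0.84 (adjusted p = 0.0253), and it turned to -0.29 with scaling by library totals. All coding bases of Ppard, and 57.8% of its exon bases, lie inside other annotated genes.

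Pparg is the PPAR best known for adipocyte differentiation. Its gene lies on chromosome 6 from 115372084 to 115440419 on the plus strand (mm9) and shares no exon base with another gene. Pparg stood at 3.49, 6.37 and 8.68 CPM in cardiomyocyte libraries 1 to 3 and at 6.05, 9.57 and 7.14 CPM in the nonmyocyte libraries. The fractions overlapped, and cardiomyocyte library 1 was the lowest of all 6 libraries. Its log2 fold change was -0.25 ± 0.38 (adjusted p = 0.579), and 0.03 without cardiomyocyte library 1. With scaling by library totals Pparg was called lower, at -0.95 (adjusted p = 0.0344). Summed endothelial markers were also lowest in cardiomyocyte library 1, at 670 CPM against 1212 and 1309 CPM in libraries 2 and 3. Of the listed adipocyte genes, Adipoq, Lep, Plin1, Cidec and Ucp1 were at or near 0 in both fractions, with no mean above 0.253 CPM. Cfd, too low to test, stood at 6.97, 2.18 and 0.727 CPM in cardiomyocyte libraries 1 to 3 and at 0 in nonmyocytes. Adrb3 was lower in cardiomyocytes, at 0.323 against 2.66 CPM. The whole list of 13 adipocyte markers summed to 2442 to 3259 CPM in cardiomyocytes and 23.4 to 32.8 CPM in nonmyocytes, mostly from Cox8b, a cytochrome oxidase subunit also known from heart muscle, at 2695 and 17.9 CPM. Cidea and Lipe were higher in cardiomyocytes too, at 59.9 and 58.5 CPM against 0.340 and 6.27 CPM. The part of endothelial cells or adipocytes in the Pparg level was not tested.

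The 3 ERR genes were all higher in cardiomyocytes, by different amounts. Esrra, the ERR with the widest expression and itself a target of PGC-1, lies on chromosome 19 from 6985467 to 6996308 on the minus strand (mm9). Esrra stood at 322, 309 and 255 CPM in cardiomyocyte libraries 1 to 3 and at 48.8, 49.6 and 48.2 CPM in the nonmyocyte libraries. The fractions were separate in every library. Its log2 fold change was 2.59 ± 0.16 (adjusted p = 1.77e-08), and the nonmyocyte mean was 16.5% of the cardiomyocyte mean. Other annotated genes cover 61.8% of its exon bases.

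The Esrra promoter, GRCm38.p6 chr19:6921759-6922058 on the minus strand, held the NRF1 core at 3 positions, -141, -34 and -30, the last pair overlapping. Of its bases 66% were G or C, beside 74.7% for Ppara, 70.3% for Tfam and a median of 52.7% over all promoters.
Esrra promoter: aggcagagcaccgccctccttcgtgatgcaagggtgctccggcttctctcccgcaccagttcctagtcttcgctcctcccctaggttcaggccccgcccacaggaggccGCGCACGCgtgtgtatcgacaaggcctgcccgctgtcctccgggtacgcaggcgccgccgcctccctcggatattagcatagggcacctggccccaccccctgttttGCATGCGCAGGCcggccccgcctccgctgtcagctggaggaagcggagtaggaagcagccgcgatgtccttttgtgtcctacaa

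Esrrb, known for its part in pluripotent stem cells as well as in the heart, lies on chromosome 12 from 87702067 to 87862575 on the plus strand (mm9). Esrrb stood at 74.6, 86.9 and 92.8 CPM in cardiomyocyte libraries 1 to 3 and at 0.970, 1.06 and 0.388 CPM in the nonmyocyte libraries, where it had 5 to 13 counts. The difference was 6.72 ± 0.30 (adjusted p = 7.96e-10), with no overlap. Esrrg, an ERR of muscle, heart and brain, lies on chromosome 1 from 189432670 to 190038764 on the plus strand (mm9). Esrrg stood at 57.2, 56.9 and 66.6 CPM in cardiomyocyte libraries 1 to 3 and at 0.597, 0.193 and 0.698 CPM in the nonmyocyte libraries, where it had 2 to 9 counts. Its difference was 6.85 ± 0.33 (adjusted p = 1.26e-09), again with no overlap and within the standard error of that of Esrrb. Almost none of the exon bases of Esrrb and Esrrg lie in other genes, at 0% and 0.499%.

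The coactivator Ppargc1b (PGC-1 beta) lies on chromosome 18 from 61457790 to 61560085 on the minus strand (mm9). Its levels were even within each fraction, at 153, 157 and 157 CPM in cardiomyocyte libraries 1 to 3 and 1.64, 1.64 and 2.02 CPM in the nonmyocyte libraries. No library of one fraction reached the range of the other. The log2 fold change was 6.45 ± 0.21 (adjusted p = 1.18e-10), and the nonmyocyte mean was 1.13% of the cardiomyocyte mean of 156 ± 2.19 CPM (SD, n = 3).

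Ppargc1a (PGC-1 alpha), the coactivator best known for inducing mitochondria in muscle and brown fat, was almost without counts in the deposited table. It had 15, 9 and 3 counts in cardiomyocyte libraries 1 to 3, which is 2.91, 0.466 and 0.145 CPM, and 0 counts in all 3 nonmyocyte libraries. The shallowest cardiomyocyte library held the most. The gene did not pass the filter on low counts and was not tested. The pooled 27 cardiomyocyte counts (95% Poisson interval 17.8 to 39.3, counting error only) came to 0.599 CPM. This was 7.31 times the level of 3 counts over the nonmyocyte group, and 3.67 times without cardiomyocyte library 1. The Poisson interval of the 0 nonmyocyte counts reached 3.69, and neither ratio is a lower bound.

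The low value of Ppargc1a went with the overlap of its exons with another gene. The gene lies on chromosome 5 from 51845488 to 51958964 on the minus strand (mm9), and 97.8% of its 6641 exon bases are also exon bases of n414295, an entry of the long noncoding RNA catalogue in the deposited annotation, on the same strand. That entry stood at 0 in all 6 libraries. Only 146 exon bases of Ppargc1a, from 51958819 to 51958964 at its 5′ end, are in no other gene, and 45 of them are coding. The same was seen across the table, where 460 of 460 Ensembl genes whose exon bases all lie in other genes had 0 counts in every library, and 6072 of 6072 such catalogue entries. Of Ensembl genes with over 95% to under 100% of their exon bases shared, 75.3% were at 0. The share at 0 was 12.6% among those sharing over 50% to 95%, 4.86% among those sharing over 0% to 50% and 30.2% among those sharing none. How reads in shared bases were counted is not given in the sources used here, and whether reads outside those 146 bases were counted was not tested. No level of the whole Ppargc1a transcript is read from these counts.

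Levels were compared between the regulators only per length, as CPM per kilobase of exon. Over all exon bases the order of the cardiomyocyte means was Esrra (48.3), Ppargc1b (39.1), Ppara (25.9), Esrrb (14.1), Esrrg (9.70), Ppard (9.39), Tfam (4.70), Pparg (3.49), Nrf1 (1.42) and Ppargc1a (0.177). The libraries of neighbours in that order overlapped between Esrrg and Ppard and between Tfam and Pparg, and were separate elsewhere. In nonmyocytes the order was Esrra (8.0), Ppard (7.23), Pparg (4.29), Nrf1 (1.78), Tfam (1.32), Ppargc1b (0.443), Ppara (0.268), Esrrb (0.134), Esrrg (0.0799) and Ppargc1a (0). There Esrra and Ppard, Ppard and Pparg, Nrf1 and Tfam, and Esrrb and Esrrg overlapped. Ppard thus came right after Esrra in the cultured cells, and Ppargc1b, Ppara, Esrrb and Esrrg came last among the regulators with counts.

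Dividing by the exon bases that lie in no other gene, an alternative chosen after the overlap was seen, raised the cardiomyocyte values of the regulators with much overlap. Esrra came to 127 CPM per kilobase, Ppard to 22.3, Tfam to 17.9 and Ppargc1a to 8.03. Ppargc1b and Nrf1, with little overlap, came to 41.6 and 1.48. The Ppargc1a libraries then spread from 0.996 to 19.9, across the libraries of Esrrg, Esrrb, Pparg and Nrf1. Esrra and Ppargc1b kept the top places, at 127 and 41.6. Fold changes between the fractions do not use the length, but they rest on the same counts. The Ppard exon stretches in no other gene, of 40, 884 and 844 bases, hold no coding base. Each of the longer ones lies in 1 of its 3 transcripts. Which exon bases gave the counts of Ppard, Esrra and Tfam was not tested.

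**Figure D2:**
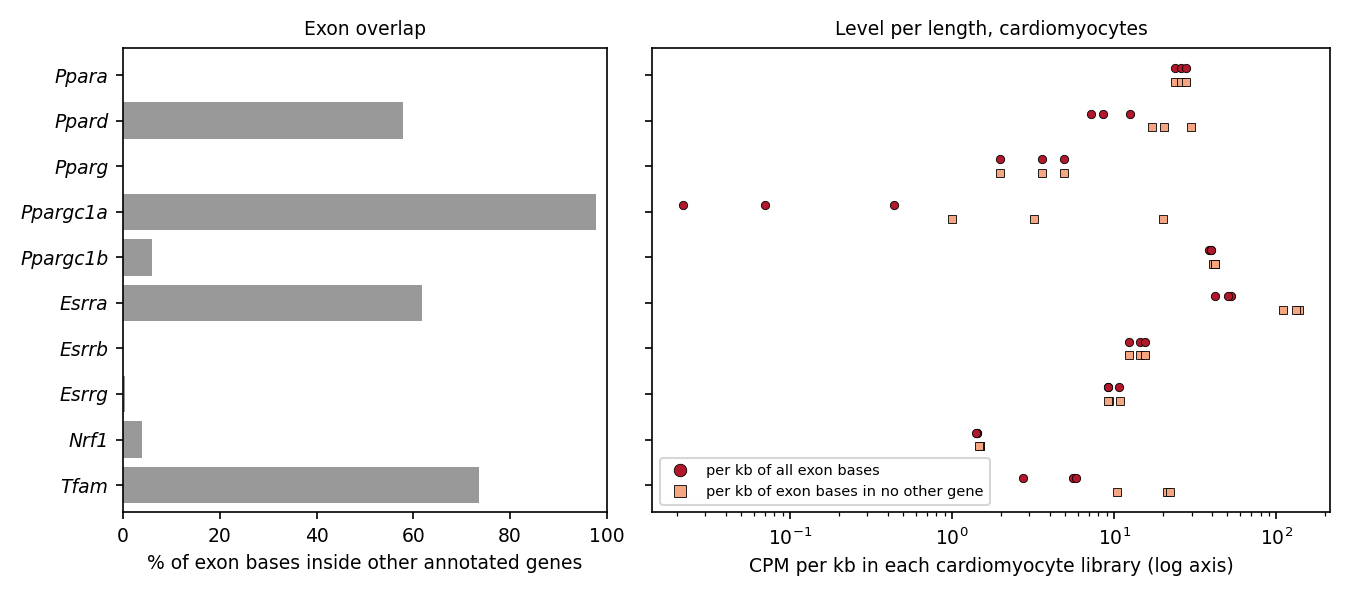
Left, percentage of each regulator's exon bases that lie inside other annotated genes. Right, CPM per kilobase in each of 3 cardiomyocyte libraries on a log axis, per all exon bases (circles) or per exon bases in no other gene (squares). The overlap runs from 0% for Ppara, Pparg and Esrrb to 97.8% for Ppargc1a, whose level per length moves most.

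Nrf1, a factor that binds the promoters of many genes for respiratory chain subunits, lies on chromosome 6 from 29997988 to 30103458 on the plus strand (mm9). Nrf1 stood at 14.7, 14.7 and 14.4 CPM in cardiomyocyte libraries 1 to 3 and at 22.3, 13 and 19.6 CPM in the nonmyocyte libraries. The cardiomyocyte libraries lay within the nonmyocyte range. The log2 fold change was -0.33 ± 0.26 (adjusted p = 0.285), and with scaling by library totals it was -1.01 and called lower (adjusted p = 0.00335).

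Tfam, which packages mitochondrial DNA and starts its transcription, lies on chromosome 10 from 70688212 to 70701028 on the minus strand (mm9). Tfam stood at 12.2, 24.6 and 25.8 CPM in cardiomyocyte libraries 1 to 3 and at 5.52, 5.41 and 6.60 CPM in the nonmyocyte libraries. Cardiomyocyte library 1 was under the other two but above every nonmyocyte library. Tfam differed by 1.85 ± 0.32 on the log2 scale (adjusted p = 0.000211). Of the Tfam exon bases 73.7% lie in other genes. Its promoter, GRCm38.p6 chr10:71237995-71238294 on the minus strand, held 1 match to the GABP site, at -47. GABP, also called NRF-2, is known to bind promoters of nuclear genes for mitochondrial proteins.
Tfam promoter: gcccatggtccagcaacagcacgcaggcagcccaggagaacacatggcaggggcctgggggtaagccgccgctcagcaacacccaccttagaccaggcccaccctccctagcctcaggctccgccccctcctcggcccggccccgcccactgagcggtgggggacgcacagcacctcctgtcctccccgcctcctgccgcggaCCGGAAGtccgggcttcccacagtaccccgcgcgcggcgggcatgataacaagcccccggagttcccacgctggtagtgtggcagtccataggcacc

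**Figure D3:**
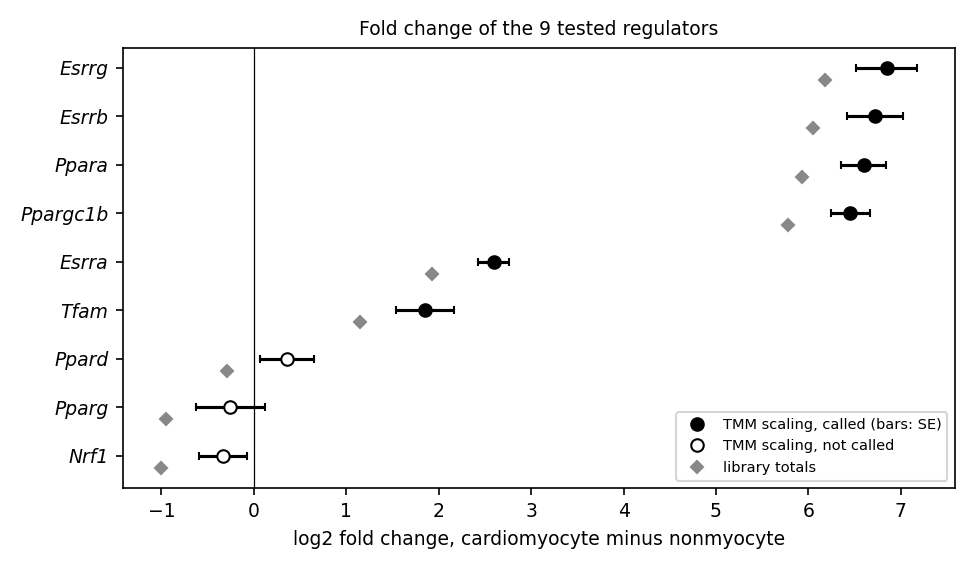
Log2 fold change of the 9 tested regulators, cardiomyocyte minus nonmyocyte, with bars for the standard error, filled circles for called genes and grey diamonds for the value with scaling by library totals. Esrrg, Esrrb, Ppara and Ppargc1b lie between 6.45 and 6.85, and the 3 genes not called lie within 0.36 of 0.

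The 4 regulators with differences above 6 on the log2 scale were at 0.824% (Esrrg), 0.952% (Esrrb), 1.04% (Ppara) and 1.13% (Ppargc1b) of their cardiomyocyte means in nonmyocytes. Cardiomyocyte markers, among them Myh6, Myl2 and Tnnt2, were at 0.619% to 0.802% there, with a median of 0.671% over 12 genes. Summed over the list, they stood at 984 to 1333 CPM in nonmyocytes. By their means these 4 regulators were therefore slightly above the share at which the cardiomyocyte markers appeared in the same libraries. The part of cardiomyocyte RNA in their nonmyocyte levels was not tested. Esrrg, Esrrb, Ppara and Ppargc1b had 19, 29, 37 and 65 nonmyocyte counts in all. Their 95% Poisson intervals were 11.4 to 29.7, 19.4 to 41.6, 26.1 to 51 and 50.2 to 82.8 counts. Whether any of the 4 exceeds the marker share beyond counting error was not tested. Esrra and Tfam, at 16.5% and 28.0%, and Ppard, at 77.0%, were far above that share.

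**Figure D4:**
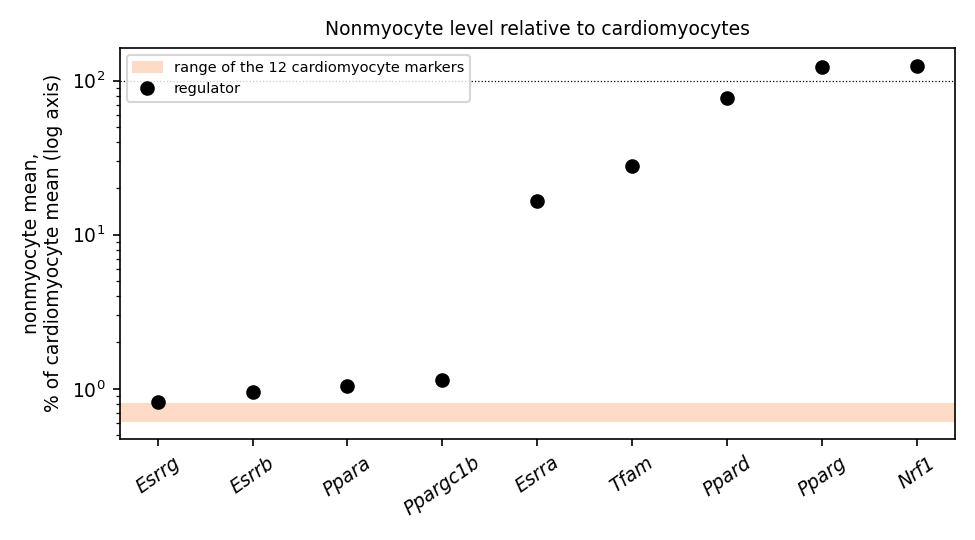
Nonmyocyte mean of each of 9 regulators as a percentage of its cardiomyocyte mean, on a log axis, with the range of 12 cardiomyocyte markers shaded. Esrrg, Esrrb, Ppara and Ppargc1b lie at 0.824% to 1.13%, just over the shaded range of 0.619% to 0.802%, and the other 5 lie far above it. Counting error is not drawn.

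Ratios within a library compare 2 regulators without any scaling between libraries, and 5 pairs were computed on log2 CPM per kilobase of exon after adding 0.5 counts. With 3 libraries against 3 the smallest exact p is 0.1. Ppara exceeded Ppard by 0.93, 1.61 and 1.95 in cardiomyocyte libraries 1 to 3 and was below it by -5.47, -3.87 and -4.56 in nonmyocytes. Over all exon bases Ppara was thus the higher of the pair in the 3 cardiomyocyte libraries and Ppard in the 3 nonmyocyte libraries. The difference of 6.13 had p = 0.1 by a two-sided exact permutation test (0.125 after adjustment over the 5 pairs). The Ppara to Pparg ratio was 2.97 ± 0.54 (SD, n = 3) in cardiomyocytes and -3.94 ± 0.10 (SD, n = 3) in nonmyocytes, a change of sign in each library. With only the exon bases in no other gene, the Ppara to Ppard ratio in cardiomyocytes shrank from a mean of 1.5 to 0.25, and its order turned in cardiomyocyte library 1, where Ppara stood at 23.7 and Ppard at 29.6 CPM per kilobase.

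The Esrrg to Esrra ratio was -2.31 ± 0.31 (SD, n = 3) in cardiomyocytes and -6.68 ± 0.89 (SD, n = 3) in nonmyocytes. Esrra was the higher of the pair in all 6 libraries, and by more in nonmyocytes. Tfam exceeded Nrf1 by 1.65 ± 0.61 (SD, n = 3) in cardiomyocytes and was below it, at -0.40 ± 0.37 (SD, n = 3), in nonmyocytes. Its values in cardiomyocyte libraries 1 to 3 were 0.94, 1.96 and 2.05, so library 1 was the closest to the nonmyocytes. Per exon base in no other gene the means were 3.52 in cardiomyocytes and 1.47 in nonmyocytes, so that Tfam was then the higher of the pair in nonmyocytes too. Both of these differences, 4.37 and 2.05, had the smallest p that the exact permutation test allows. Ppargc1a to Ppargc1b stood at -6.41, -9.06 and -10.59 in the cardiomyocyte libraries, a spread of over 4 log2 units that follows the few Ppargc1a counts.

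Small RNA sequencing gave a further readout of the Ppargc1b locus. A microRNA precursor lies inside the gene, and the deposited table names it only by the clone AC116595.1 and places it on the opposite strand, with its reads antisense to that annotation and so on the strand of Ppargc1b. On that strand the arm with the lower coordinates lies at the 3′ end, so the table's names 5p and 3p are reversed for these reads. The arm that the table calls 5p lies on chromosome 18 from 61557491 to 61557512 (mm9). It had 37253, 313050 and 491284 counts in the cardiomyocyte libraries and 1114, 634 and 618 in the nonmyocyte libraries. It made up 9.03%, 10.2% and 7.78% of the counts in cardiomyocyte libraries 1 to 3 and ranked 5 of 850 arms by its mean there. In nonmyocytes its share was 0.0887%, 0.115% and 0.743%. The highest nonmyocyte share came from the library with the fewest counts, 83170 in all.

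The log2 fold change of this arm was 6.47 ± 1.11 (adjusted p = 0.00260), beside 6.45 for Ppargc1b itself in the other assay. The arm that the table calls 3p, from 61557529 to 61557550, was far less abundant. It had 91, 2754 and 5090 counts in cardiomyocytes and 6, 3 and 9 in nonmyocytes. Its log2 fold change was 6.20 ± 1.48 (adjusted p = 0.0115). Without the shallow nonmyocyte library 3 the values were larger. They were 8.43 (adjusted p = 7.94e-06) for the arm called 5p and 8.83 (adjusted p = 4.88e-05) for the arm called 3p. With scaling by library totals they were 4.84 and 4.54, both still called. Among 343 tested arms 65 were called higher in cardiomyocytes (19%). A catalogue entry, n277522, lies over the precursor from 61556052 to 61558758 without sharing an exon base with Ppargc1b. It had 73, 157 and 257 counts in cardiomyocytes and 0, 1 and 4 in nonmyocytes, with a log2 fold change of 6.30 ± 0.65 (adjusted p = 1.98e-06).

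Partners and cofactors of the receptors were mixed, where 31.6% of all tested genes were called higher and 32.1% lower. Of 22 genes, 12 were higher, 2 lower and 8 not called, with a median log2 fold change of 0.55 beside -0.02 for all tested genes. The largest rise was that of Rxrg, a retinoid X receptor of muscle, from 0.886 ± 0.517 to 135 ± 8.18 CPM (SD, n = 3), a log2 fold change of 7.19 ± 0.31. The other retinoid X receptors, named after their values were seen, rose by 1.48 (Rxrb) and 0.64 (Rxra). Perm1, listed under its older symbol 2310042D19Rik and known as a muscle gene induced by PGC-1 and ERR, rose by 6.14 ± 0.24. Lpin1, a coactivator of PPAR alpha and PGC-1 alpha, rose by 2.72 ± 0.18. Pprc1, the third PGC-1 family gene, was lower, at a log2 fold change of -0.73 ± 0.17. It thus moved against Ppargc1b, at 51.9 ± 7.12 CPM in cardiomyocytes and 85.5 ± 8.51 CPM in nonmyocytes (SD, n = 3). Only 6 of the 22 were higher, and 6 lower, with scaling by library totals.

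Known PPAR target genes of fatty acid metabolism were all called where they could be tested. Of 33 listed genes 31 were tested, with 27 higher, 4 lower and a median of 4.04 beside -0.02 for all tested genes. Among all tested genes 31.6% were called higher and 32.1% lower. Fabp3, the fatty acid carrier of heart muscle, rose by 7.07 ± 0.23 and the fatty acid transporter Cd36 by 7.15 ± 0.28. Lpl, which frees fatty acids from blood lipids, rose by 5.42 ± 0.22, and Hadha, a subunit of the mitochondrial trifunctional protein, by 3.76 ± 0.19. Endothelial cells are also known to express Cd36, and their markers were higher in the same libraries, as given above. The part of those cells in this list was not tested. The 4 genes that were lower are also textbook PPAR targets. Angptl4, an inhibitor of lipoprotein lipase, fell by 3.0 on the log2 scale, Cpt1a, the liver-type carnitine palmitoyltransferase, by 1.95, Plin2, a lipid droplet coat protein, by 1.39 and Ucp2, a mitochondrial carrier, by 1.28. Angptl4 spread widely among cardiomyocyte libraries, at 7.17, 10.6 and 45.3 CPM, all below the 155 to 206 CPM of nonmyocytes.

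Of 18 genes known as PPAR gamma targets in adipocytes, 10 passed the filter on low counts. Of these 7 were higher and 3 lower, with a median of 2.78, where 31.6% of all tested genes were called higher and 32.1% lower. The leading genes are also expressed in heart muscle. Slc2a4, the insulin-regulated glucose transporter, rose by 7.23 ± 0.23, Cidea, a lipid droplet protein, by 7.37 ± 0.37 and the hormone-sensitive lipase Lipe by 3.22 ± 0.24. Fabp4, a fatty acid carrier of adipocytes and capillary endothelium, rose by 3.91 ± 0.26. The 3 lower genes, Adrb3, Acsbg1 and Cebpa, were all under 5 CPM in both fractions. Pparg itself was not called, as given above.

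All 30 listed ERR and PGC-1 target genes of oxidative metabolism were higher in cardiomyocytes, where 31.6% of all tested genes were called higher and 32.1% lower. Their median was 3.54 beside -0.02 for all tested genes. With scaling by library totals 28 were called higher and 0 lower, where 3177 of 14734 tested genes were called higher and 7106 lower. The list holds Esrra itself. Myoglobin (Mb) rose by 7.29 ± 0.24 and reached 36647 ± 3255 CPM (SD, n = 3) in cardiomyocytes. The ADP/ATP carrier Slc25a4 rose by 3.9 ± 0.18, and Atp5b, a catalytic subunit of ATP synthase, by 2.99 ± 0.17. The sum over the list was 80161 to 96890 CPM in cardiomyocytes and 4270 to 4544 CPM in nonmyocytes. Cardiomyocyte markers moved with it, from a sum of 984 to 1333 CPM in nonmyocytes to a sum of 146310 to 189480 CPM in cardiomyocytes, and the part of cell type in the result was not tested.

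Genes of the NRF1 and GABP axis and of mitochondrial DNA expression were divided. The shares over all tested genes were 31.6% called higher and 32.1% lower. Of 27 tested genes of 30, 14 were higher, 3 lower and 10 not called, with a median of 1.08. Mrpl12, a mitochondrial ribosomal protein, rose by 2.52 ± 0.18, Peo1, the mitochondrial DNA helicase Twinkle, by 2.59 ± 0.19 and the mitochondrial protease Lonp1 by 1.81 ± 0.15. Alas1, the first enzyme of haem synthesis, rose by 1.51 ± 0.20. Tk2, a mitochondrial thymidine kinase, Gabpb1, a GABP subunit, and Tomm34 were lower, at -1.22 ± 0.23, -1.07 ± 0.38 and -0.55 ± 0.17. Mterfd1, whose exon bases all lie in other genes, stood at 0 in every library. With scaling by library totals 6 of the 27 were lower.

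Kinases and regulators upstream of PGC-1 moved both ways, as did all tested genes, with 31.6% called higher and 32.1% lower. Of 24 genes 10 were higher, 6 lower and 8 not called, with a median of 0.12. Adrb1, the main beta-adrenergic receptor of heart muscle, rose by 7.11 ± 0.54, and Mef2d, a muscle transcription factor known to act on the Ppargc1a promoter, by 1.35 ± 0.19. The kinase Akt1 was lower, at -0.66 ± 0.16, and Twist1, a transcription factor of mesenchymal cells known to repress PGC-1 alpha targets, was lower at -4.74 ± 0.42. Gsk3b was not called, at -0.32 ± 0.18. The catalytic subunits of AMP-activated kinase, named after their values were seen, moved apart. Prkaa2, its muscle form, was higher by 3.96 ± 0.29 and Prkaa1 lower at -0.93 ± 0.22. With scaling by library totals 12 of the 24 genes were lower.

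**Figure D5:**
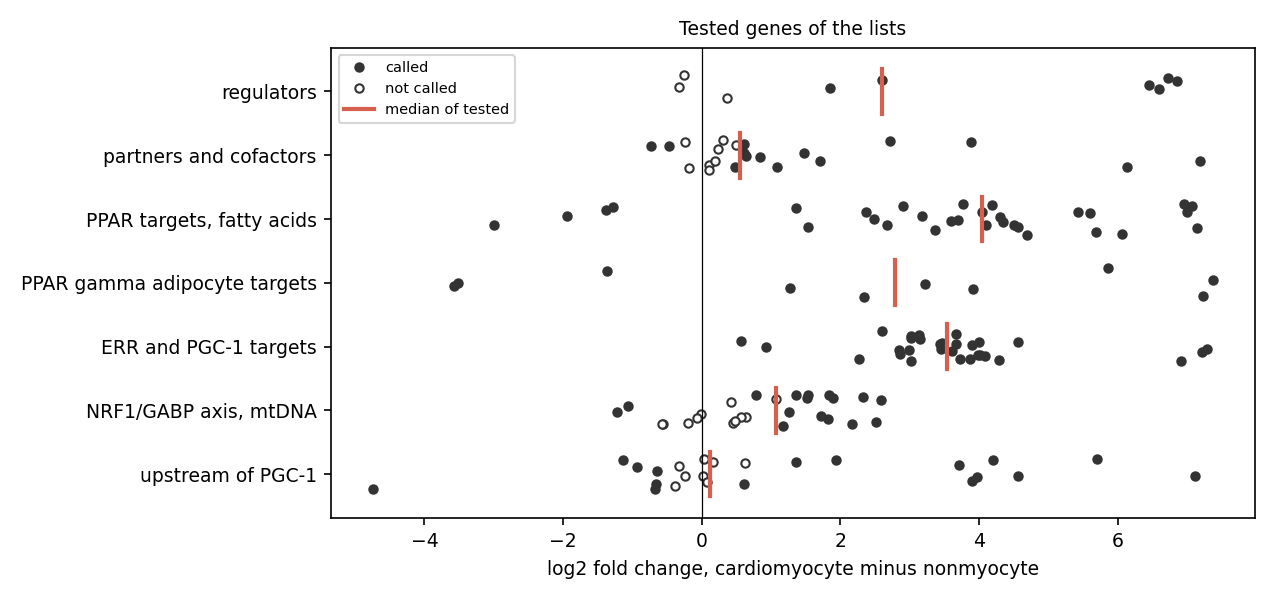
Log2 fold change, cardiomyocyte minus nonmyocyte, of each tested gene of 7 lists, filled where called and open where not, with a red line at the median of each list. With TMM scaling all 30 ERR and PGC-1 targets lie above 0, while upstream genes straddle it with a median of 0.12.

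The genes nearest to each regulator were found among 11316 other named genes by the Euclidean distance of log2 CPM over the 6 libraries, which favours genes of the same level. Casz1, a cardiac zinc finger factor, was nearest to Ppargc1b at a distance of 0.236, with 159 ± 1.78 CPM in cardiomyocytes and 1.93 ± 0.142 CPM in nonmyocytes (SD, n = 3). Trim55, a sarcomere-associated ubiquitin ligase, was nearest to Ppara at 0.404, and Slc36a2, an amino acid transporter, to Esrrb at 0.551. Grip2 was nearest to Esrrg at 0.933, the widest of these distances. Gpsm1 was nearest to Esrra at 0.384 and Dtd1 to Tfam at 0.498. Of the 3 regulators not called, Ppard lay nearest to Ppp2r2d (0.569), Pparg to Vps33b (0.455) and Nrf1 to Csrnp2 (0.368).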

How the data were processed

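Gene counts of polyadenylated RNA and counts of microRNA arms from small RNA were used as the authors deposited them, unnormalized whole numbers per library. The deposited annotation (GTF, whose fields hold no measurement and are of another unit) pairs Ensembl genes of mm9 with a catalogue of 36991 long noncoding RNA entries. The polyadenylated RNA libraries were single-end and not strand-specific, per the labels' protocols, so reads of a gene and of an antisense partner cannot be told apart. The submitters' processing notes name Bowtie, TopHat 1.3.0, HTSeq, DESeq and edgeR with mm9 and NCBIM37, without their roles. The rule for reads in shared exon bases is not given in the sources used here.

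Counts were filtered with filterByExpr (minimum count 10), scaled by TMM and tested with glmQLFit and glmQLFTest in edgeR 4.0.16 (R 4.3.3), cardiomyocyte against nonmyocyte, 3 libraries each, two-sided, with Benjamini-Hochberg adjustment over all genes tested. Standard errors are the size of the log2 fold change divided by the root of the test's F value. limma 3.58.1, DESeq2 1.42.0, other scalings and filters, and each library left out were alternatives. The procedure was also run on simulated counts in which far fewer genes changed than were called here. That run does not measure the error rate for these data. Floors are 3 counts, which is 0.145 to 0.581 CPM per library, and cover counting error only. Ratio tests used scipy 1.17.1.

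The regulators and all gene lists were chosen with earlier results of these data known. Named genes are all 10 regulators and, per list, the 3 most abundant genes, the called gene with the largest change each way and up to 5 genes against the majority. A gene that this rule names is not reported here. Older symbols were matched by Ensembl identifier. Protein sequences were not used here.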

Additional observations from a re-analysis of the deposited data

How the results depend on the processing

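The 6 calls among the regulators were kept under all 16 alternatives, with 7 higher when Ppargc1a entered without the filter on low counts and when nonmyocyte replicate 1 was left out and Ppard was called. With library totals 2 regulators, Pparg and Nrf1, were called lower, and Ppard turned to -0.29. Without cardiomyocyte replicate 1 Pparg turned to 0.026, and its range over leave-one-out fits was -0.55 to 0.026. Among partners and cofactors the 12 higher became 6 with library totals and 6 in a test against a 2-fold change. The 2 lower became 6 with library totals, 1 without the filter, 0 against a 2-fold change, 1 over Ensembl genes only and 1 to 2 when single libraries were left out. In the NRF1 and GABP list the 14 higher became 9 against a 2-fold change, and the 3 lower became 6 with library totals, 0 against a 2-fold change and 1 to 3 over leave-one-out fits. The 6 lower genes upstream of PGC-1 became 12 with library totals and 1 against a 2-fold change. The fall under the 2-fold test follows from its construction, and for the other changes the cause was not tested. The Ppargc1a to Ppargc1b ratio, whose nonmyocyte value rests on the added counts, differed between the fractions by -2.50 (p = 0.2, two-sided exact permutation test, n = 3) and by -0.30 with 0.1 counts added. A fit with the replicate number as a block called 6 regulators higher and 0 lower, and 4656 of all genes higher against 4657. Same-numbered polyadenylated RNA libraries correlated at 0.162, 0.0504 and 0.1 in their deviations, and differently numbered ones at -0.16 to 0.0694. Whether equal numbers share a heart cannot be told from these values. Depth limits the nonmyocyte levels of Esrrb and Esrrg, with 29 and 19 counts in all, and the counts of Ppargc1a.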

Other observations

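Other annotated genes that overlap the spans of the regulators have counts of their own. Whether those counts came from separate transcripts was not tested. Of 28 such genes, 5 were tested, and 3 of these, all catalogue entries on the strand of their regulator, were higher in cardiomyocytes. Beside n277522 over the microRNA precursor, n280111 starts before the 3′ end of Ppargc1b, from 61456138 to 61458031 on chromosome 18 (mm9), and shares 12.8% of its exon bases with it. It stood at 32.2, 42.7 and 44.4 CPM in the cardiomyocyte libraries and at 0.299, 0.387 and 0.0776 CPM in the nonmyocyte libraries. Its log2 fold change was 7.29 ± 0.40 (adjusted p = 4.77e-09, edgeR's quasi-likelihood test), beside 6.45 ± 0.21 for Ppargc1b, and the difference between them was not tested. Inside Esrrg, n290897 from 189673650 to 189676581 on chromosome 1 (mm9) shares no exon base with it and stood at 2.91, 1.81 and 3.15 CPM in cardiomyocytes, against 0.373 CPM in nonmyocyte library 1 and 0 in the other nonmyocyte libraries. Its log2 fold change was 4.20 ± 0.96 (adjusted p = 0.00181). All 7 catalogue entries with at least 95% of their exon bases inside the exons of a regulator had 0 counts in every library, as had 1 of 18 genes in those spans that share no exon base with the regulator.

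Pdk4 and Ucp3, PPAR targets chosen after their values were seen, spread widely among cardiomyocyte libraries. Pdk4, the kinase that turns off pyruvate dehydrogenase, stood at 966, 520 and 1692 CPM in cardiomyocyte libraries 1 to 3, and Ucp3, a mitochondrial carrier of muscle, at 46.5, 65.8 and 213 CPM. Both were highest in library 3, where Angptl4 was highest too, at 45.3 CPM. Ppara was also highest there, at 107 CPM against 91.1 and 99.6 CPM in libraries 1 and 2, a narrower spread. Not every listed PPAR target peaked in library 3, as Fabp3 stood at 2966, 4117 and 3256 CPM in libraries 1 to 3. Whether these targets follow Ppara was not tested.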
